A study of Mus musculus with 40 samples.

Results

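A set of 10 genes of the Ras and MAP kinase pathway were followed over the 40 arrays of the series: Dusp4, Dusp6, Spry1, Spry2, Spry4, Spred1, Etv1, Etv4, Etv5 and Nf1. They were named by symbol, with no threshold on a measured value, and make up 10 of the 18194 genes tested and 28 of the 45037 probe sets. A probe set is the group of short oligonucleotides on an Affymetrix mouse genome array that reports 1 transcript, and its value here is a log2 signal, so that a difference of 1 is a factor of 2. Where a gene had several probe sets, the brightest on average stands for it. All 3 probe sets of Etv1 also name a pseudogene, Gm5454, so values given for Etv1 are uncertain and may hold signal of both.

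The study asked how gliomas evolve after loss or mutation of the tumour suppressor p53 in mice whose Cre recombinase is driven by the human GFAP promoter (hGFAP-cre), which acts in neural stem and progenitor cells and their progeny. The 11 p53nullCKO gliomas carried hGFAP-cre+;p53floxE2-10/floxE2-10, and the 11 p53R172HCKO gliomas carried hGFAP-cre+;p53LSLR172H/floxE2-10, a null allele together with the R172H point mutant. A further 11 cell lines came from end-stage p53R172HCKO gliomas and 2 from early biopsies of such tumours. The 5 normal cortices carried floxed p53 alleles too: 3 were hGFAP-cre+;p53floxE2-10/+ (arrays 30 to 32) and 2 were hGFAP-cre-;p53floxE5-6/floxE5-6 (arrays 33 and 34). Lines were cultured in a medium with bFGF and EGF, growth factors that activate this pathway, and the labels do not say which line came from which tumour, so groups were compared. Nothing in the labels gives ages, a batch or an array shared by samples, and the study counts tumours and cortices by mouse while the labels carry no animal number, so the p-values given speak only of the spread seen between samples.

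Growth factor receptors load Ras with GTP, and Ras starts the chain of kinases that ends in ERK (MAP kinase). Active ERK switches on genes that then dampen it. Dusp6 and Dusp4 encode phosphatases that remove phosphate from ERK in the cytoplasm and the nucleus, Sprouty proteins (Spry1, Spry2 and Spry4) act between receptor and Raf, and Spred1 brings neurofibromin, the product of Nf1, to the membrane, where it turns Ras off. Etv1, Etv4 and Etv5 are the PEA3 group of ETS transcription factors, which FGF and EGF signals induce. The DNA-binding repressor Capicua holds several of these genes down until ERK inactivates it, and in glial progenitors the pathway works downstream of Pdgfra and Egfr.

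Windows from 250 bases before to 50 bases after the start of a gene were available from RefSeq (GRCm38.p6) for 7 of the 10 genes, in 9 windows, since Etv1 and Etv5 have 2 starts each. They were searched on both strands for an octamer of the Capicua type (TNAATGNA, with N for any base), for an ETS core (CCGGAA) and for an AP-1 site (TGANTCA). The octamer stood in 11.7% of all 32851 windows, the ETS core in 14.9% and the AP-1 letters in 7.81%. Among the 7 genes, the window of Dusp6 held the octamer 2 times and that of Spry2 held it 1 time, while the ETS core stood in the windows of Spry2 and Nf1 and the AP-1 letters in none. No match overlapped another. The windows of Dusp6 and Spry2 are printed because they hold the octamer, and that of Spry1 because its signal rose most in the comparisons with cortex. They lie at chr10:99262981-99263280 on the plus strand, chr14:105896770-105897069 on the minus strand and chr3:37639697-37639996 on the plus strand, and are read 5′ to 3′ on the strand of the gene. Capitals mark the octamer, which lies on the opposite strand in all 3 places and reads TCAATGGA at both places in Dusp6 and TCAATGAA in Spry2. A match of letters is not a measured binding site.
Dusp6: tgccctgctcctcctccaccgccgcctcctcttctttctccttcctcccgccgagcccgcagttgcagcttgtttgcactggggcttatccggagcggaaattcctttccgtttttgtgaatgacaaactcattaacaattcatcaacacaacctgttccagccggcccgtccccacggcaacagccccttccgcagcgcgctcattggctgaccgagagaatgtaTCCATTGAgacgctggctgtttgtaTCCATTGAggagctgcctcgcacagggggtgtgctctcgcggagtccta
Spry2: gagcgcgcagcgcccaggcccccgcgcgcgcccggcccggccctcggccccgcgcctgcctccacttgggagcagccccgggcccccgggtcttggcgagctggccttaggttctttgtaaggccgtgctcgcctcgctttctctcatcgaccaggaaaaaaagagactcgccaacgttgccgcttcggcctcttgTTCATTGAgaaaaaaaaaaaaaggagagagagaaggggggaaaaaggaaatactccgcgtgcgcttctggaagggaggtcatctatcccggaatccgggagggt
Spry1: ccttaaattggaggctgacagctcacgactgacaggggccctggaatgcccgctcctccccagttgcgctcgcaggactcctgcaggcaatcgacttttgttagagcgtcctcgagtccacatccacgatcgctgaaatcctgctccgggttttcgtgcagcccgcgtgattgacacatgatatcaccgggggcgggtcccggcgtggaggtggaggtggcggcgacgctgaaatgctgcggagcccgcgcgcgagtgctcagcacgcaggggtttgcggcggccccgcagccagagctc

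Within the cortices, the feedback genes were not uniform. Dusp6 read 9.53, 10.64, 10.83, 10.67 and 9.55 in cortices 30 to 34. Etv5 read 8.97, 9.88, 10.18, 9.96 and 9.03 in the same order. Cortices 30 and 34 held the 2 lowest values of both genes, and they were the 2 lowest for 6 of the 10 genes (Dusp4, Dusp6, Spry1, Spry2, Spred1 and Etv5). The share of all genes with these 2 cortices lowest was not taken, so this count shows no trait particular to the pathway. Cortex 30 was Cre-positive and cortex 34 Cre-negative. The same 2 cortices had the lowest neuron markers (11.71 and 11.53, against 11.90 to 12.04 in the others), and the highest markers of oligodendrocyte progenitors (8.54 and 8.40, against 7.77 to 8.01) and of mature oligodendrocytes (11.23 and 11.32, against 10.00 to 10.90), whose part in these values was not tested. Between cortices the range was widest for Dusp6 (1.30) and Etv5 (1.22) and narrowest for Nf1 (0.304).

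The first comparison, of 22 gliomas with 5 cortices, asks how the genes of the pathway stand in the tumours. Spry1 and Etv4 rose, by 2.71 ± 0.491 (SE, 6.53-fold) and 2.29 ± 0.472 (SE, 4.88-fold) on the log2 scale, with limma adjusted p-values of 2.32e-05 and 0.000129. The other 8 genes did not pass the test. Over all 18194 genes, 22.6% were called higher in gliomas and 24.7% lower, so 2 of 10 called higher and 0 of 10 called lower is not more than the background. The median difference was 0.54 over the 10 genes and -0.03 over all genes. A glioma holds tumour cells, residual brain tissue, microglia and vessels, and more or fewer cells of a type and more or less RNA per cell cannot be told apart in such bulk RNA.

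Spry1, an inhibitor of signalling from growth factor receptors, read 7.22, 7.41, 7.24, 7.49 and 7.12 in the cortices. Its lowest, median and highest values were 7.23, 10.58 and 11.33 in the p53nullCKO gliomas and 7.68, 10.82 and 11.55 in the p53R172HCKO gliomas. Glioma 36, at 7.23, lay within the range of the cortices, and the other 21 gliomas lay above every cortex. Etv4, which is low in normal cortex, read 6.04, 6.17, 5.64, 5.55 and 5.77 in the cortices. It ran from 6.51 through a median of 8.20 to 9.19 in the p53nullCKO gliomas and from 4.87 through 8.89 to 9.58 in the p53R172HCKO gliomas. Of the 22 gliomas, 20 lay above every cortex, and 1, glioma 50, lay below them all. Its second probe set rose too (2.02, adjusted p = 0.00632 in limma over all probe sets). No gene of the 10 separated all gliomas from all cortices, which 3.91% of all genes did in the upward direction.

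**Figure D1:**
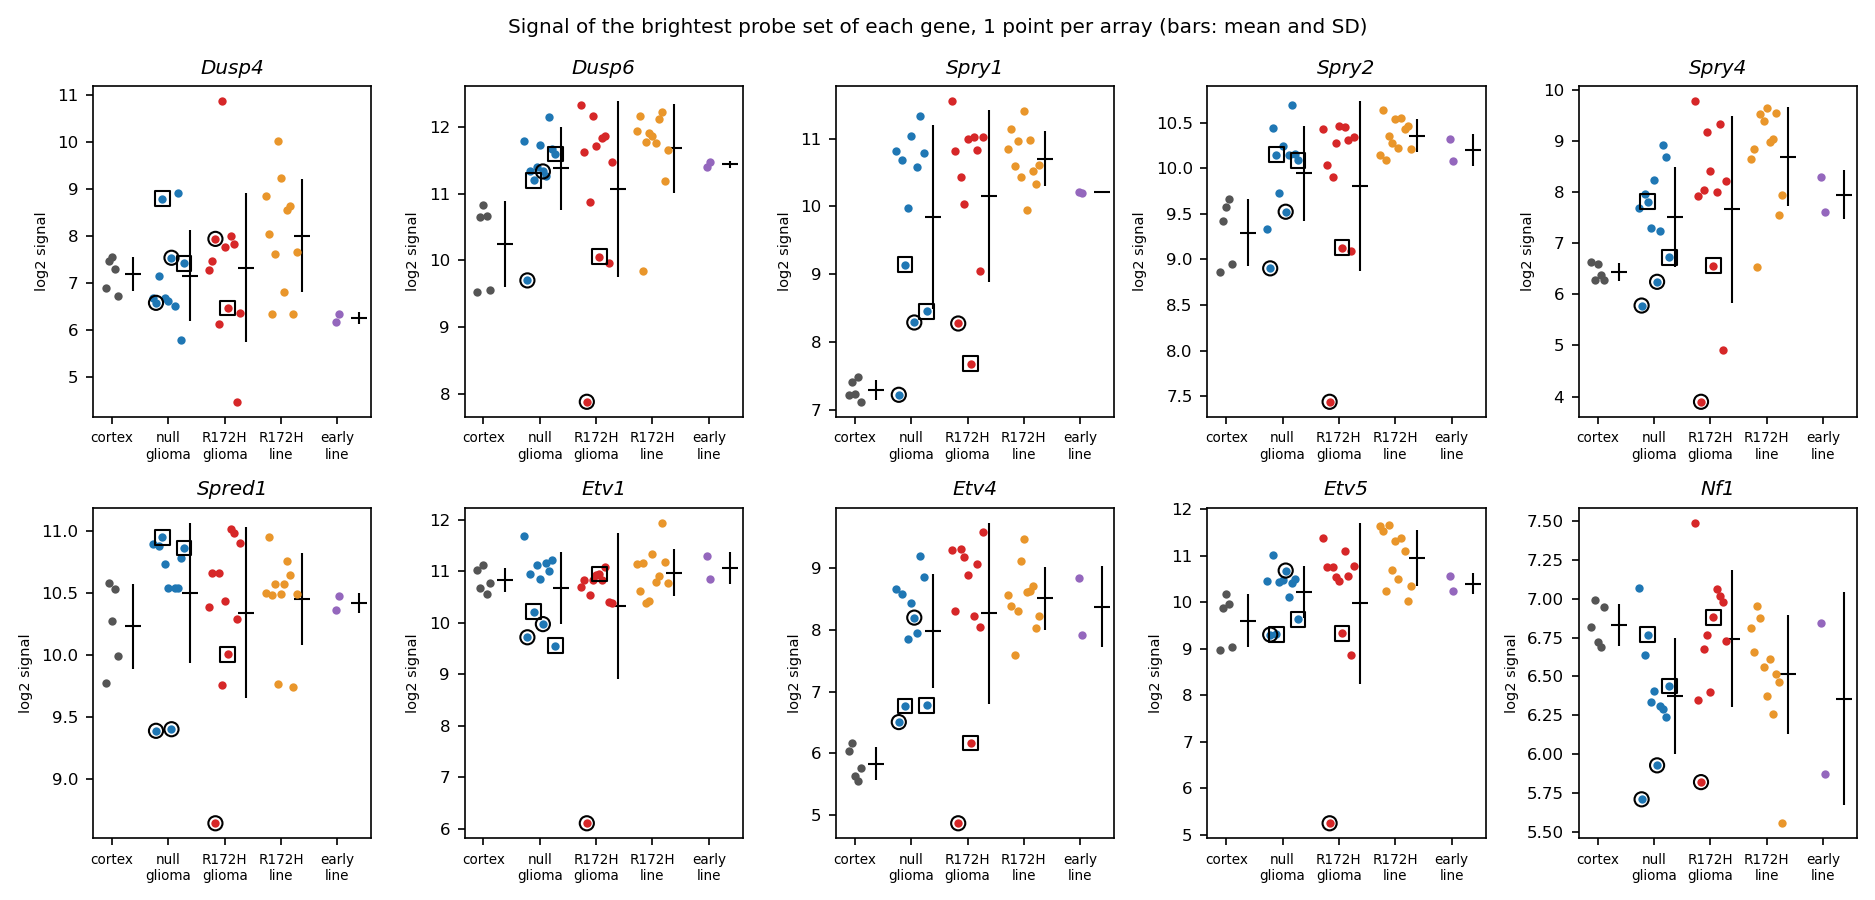
Log2 signal of the brightest probe set of each gene (y axis, own scale per panel) on each of 40 arrays (1 point each) in 5 groups, with mean and SD as a bar to the right; circles mark gliomas 36, 41 and 50, and squares gliomas 38, 45 and 58. Spry1 and Etv4 stood above the cortices in 21 and 20 of 22 gliomas, and glioma 50 was lowest of all gliomas for 7 of the 10 genes.

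The phosphatase gene Dusp6 ran from 9.70 through 11.40 to 12.15 in the p53nullCKO gliomas and from 7.88 through 11.63 to 12.33 in the p53R172HCKO gliomas. It lay above every cortex in 18 of 22 gliomas, but its mean difference of 0.98 (95% confidence interval 0.11 to 1.85) had an adjusted p of 0.0571 in limma. Spry2 read 8.86, 9.42, 9.58, 9.67 and 8.94 in the cortices. It had medians of 10.14 and 10.27 in the p53nullCKO and p53R172HCKO gliomas, and 16 of 22 gliomas exceeded every cortex (difference 0.58, interval 0.00 to 1.17, limma adjusted p = 0.0939). For both genes most tumours were higher than the cortices while a few were lower than all of them or within their range.

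Spry4 read 6.64, 6.28, 6.60, 6.38 and 6.29 in the cortices, and from 3.90 through a median of 7.94 to 9.78 over the 22 gliomas. Of these, 17 lay above every cortex and 4 below (difference 1.15, interval -0.06 to 2.35, limma adjusted p = 0.112). All 4 probe sets of Spry4 gave a difference above 0 and 1 of them was called higher (0.93, adjusted p = 0.0482 in limma over all probe sets), with a mean signal of 5.19 that lies below the median probe set of the arrays (5.36). Etv5 ran from 5.24 through 10.47 to 11.38 over the gliomas, with 15 of 22 above every cortex (difference 0.49, interval -0.53 to 1.51, adjusted p = 0.444 in limma). Its 3 probe sets gave differences of 0.41 to 0.49, none of which passed.

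Spred1, Etv1, Dusp4 and Nf1 were called neither higher nor lower in the tumours. Spred1 differed by 0.19 (interval -0.33 to 0.71, limma adjusted p = 0.572), and its 8 probe sets disagreed, with 1 called higher, 1 called lower and 3 of 8 above 0. The probe set called higher had a mean signal of 4.09, below the median probe set (5.36). That called lower had a mean signal of 9.63 (difference -0.59, adjusted p = 0.0407 in limma over all probe sets). Etv1 differed by -0.33 (interval -1.19 to 0.54, limma adjusted p = 0.555), with all 3 probe sets below 0. Dusp4 spread over the largest range of the 10 genes in gliomas, 6.40, from 4.48 in glioma 64 to 10.87 in glioma 54, around cortices of 6.72 to 7.56. Its mean difference was 0.05 (interval -1.11 to 1.21, limma adjusted p = 0.952).

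The tumours that departed from this pattern were few. Glioma 50 (p53R172HCKO) lay at least 2-fold below the cortex mean for 7 of the 10 genes. It read 7.88 for Dusp6, 3.90 for Spry4, 5.24 for Etv5 and 6.10 for Etv1, whose other gliomas of that genotype were near 10 or above. On that array the 8 markers of oligodendrocyte progenitors averaged 6.35, against a median of 11.2 in its group, the 8 astrocyte markers 7.76, against 9.36, and the dividing-cell markers 10.7, against 9.80. Glioma 36 (p53nullCKO) was the lowest of its group for 8 of the 10 genes, with progenitor markers at 7.29, against 10.96. Gliomas 38, 45 and 58 had neuron markers at 11.2, 11.2 and 11.8, near the cortex mean of 11.8, while all other gliomas had less. Glioma 58 had none of the 10 genes 2-fold from the cortex mean. The shares of all genes so placed on arrays 36, 50 and 58 were not taken, so these counts show no trait particular to the pathway. The paper reports that histology had found normal tissue in a p53R172HCKO primary tumour before the arrays were run. The labels do not name that tumour. The part of cell composition in these values was not tested.

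Gliomas 36, 41 and 50 had been set apart by earlier results of these data, and neuron markers set 38, 45 and 58 apart here. Without glioma 50 alone, 6 genes were called higher in gliomas than in cortex (Dusp6, Spry1, Spry2, Spry4, Etv4 and Etv5), and without gliomas 36, 41 and 50 there were 7, with Spred1 added. Glioma 50 was the lowest of the 22 gliomas for 7 of the 10 genes, and leaving it out alone was chosen after seeing the data. More calls among these genes without it thus follow from that choice. The shares of all genes called under these settings are not given here. Without gliomas 38, 45 and 58, the genes called stayed Spry1 and Etv4. With all gliomas kept, array weights called the same 6 genes as the fit without glioma 50, and a filter on dim genes added Dusp6 to the 2 (limma adjusted p = 0.0454). The calls of Spry1 and Etv4 held in all 18 alternatives run.

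**Figure D2:**
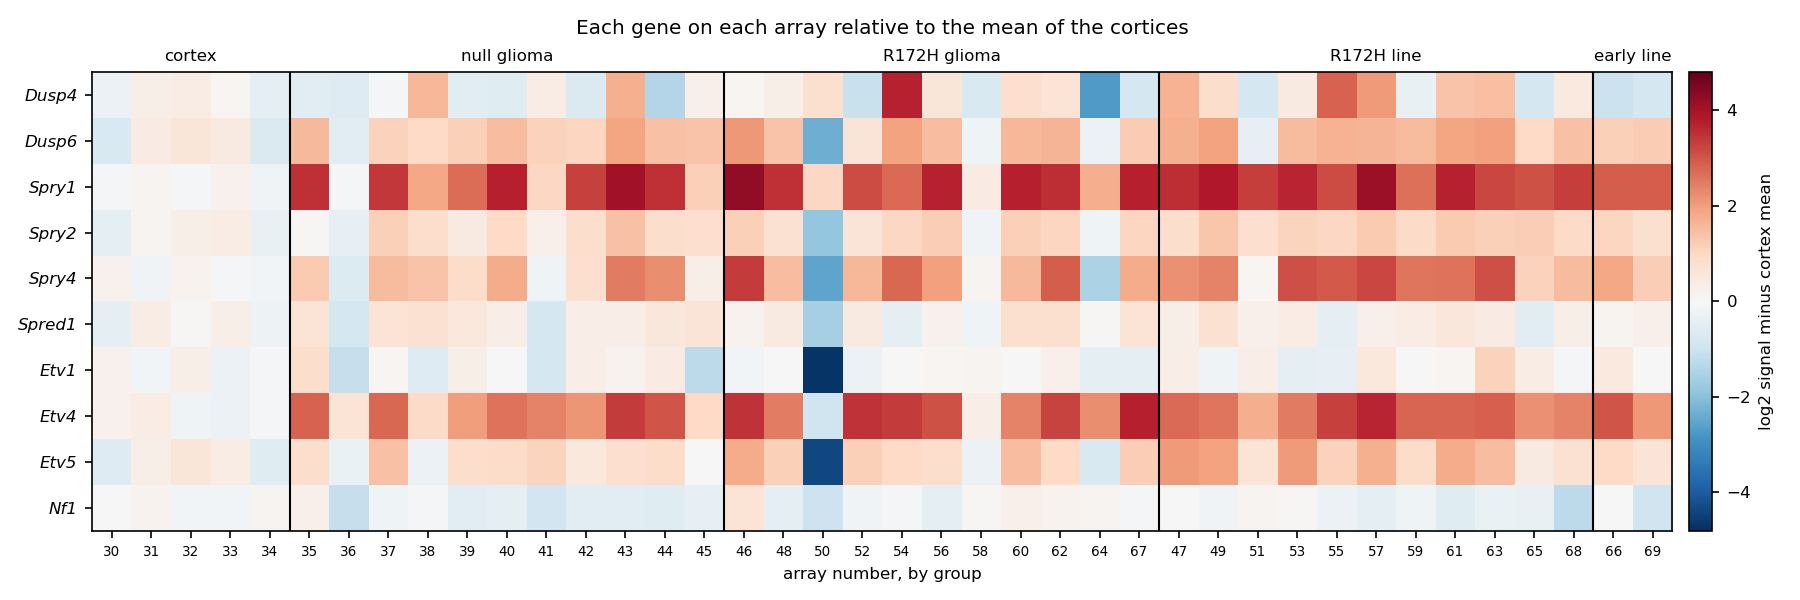
Log2 signal of each gene (rows) on each array (columns, by array number within groups) minus the mean of the 5 cortices (red above, blue below). Spry1 and Etv4 were above the cortex mean on most tumour and cell line arrays, glioma 50 was below it for 8 of the 10 genes, and glioma 58 was within 1 of it for all 10.

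Between the tumour genotypes, none of the 10 genes passed the test, nor did more than 6 genes of all (0.033% called in either direction, limma adjusted p). The differences, p53R172HCKO minus p53nullCKO, ran from -0.35 for Etv1 to 0.36 for Nf1. Nf1 was the only one of the 10 with an unadjusted p under 0.05, beside 2024 of all 18194 genes, a like share. It ran from 5.71 through 6.34 to 7.07 in the p53nullCKO gliomas and from 5.82 through 6.76 to 7.49 in the p53R172HCKO gliomas, and the groups overlapped almost fully. Its difference of 0.36 (interval 0.03 to 0.70) had an adjusted p of 0.396. The intervals for Spry4 (-0.885 to 1.19), Etv5 (-1.11 to 0.65) and Dusp4 (-0.83 to 1.17) leave room for differences of about 2-fold, so these arrays do not show that the genotypes are alike. Without glioma 50 the differences of Dusp6, Spry2, Spred1, Etv1 and Etv5 turned from below 0 to above it.

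**Figure D3:**
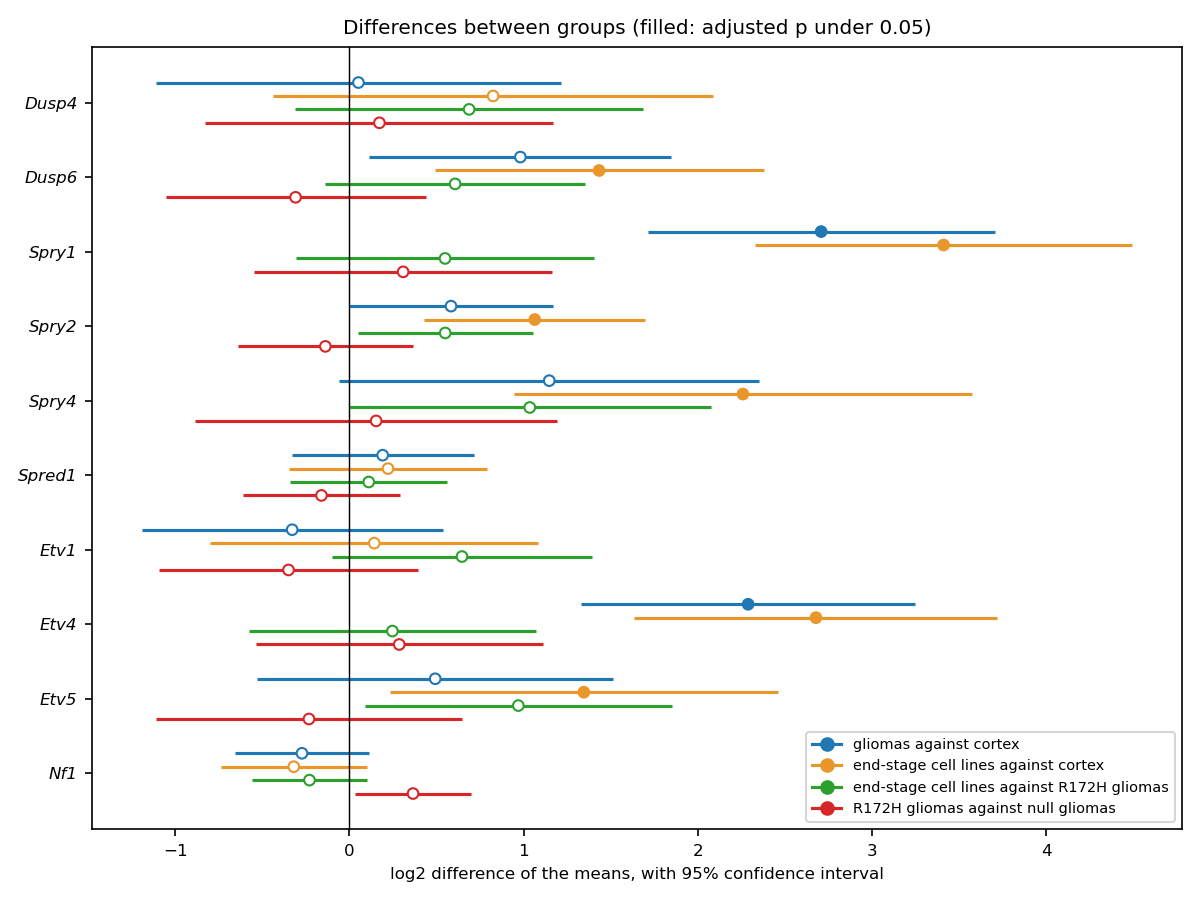
Log2 difference of group means (x axis) with its 95% confidence interval for the 10 genes (y axis) in 4 comparisons; filled points had a limma adjusted p under 0.05. Filled points stand only in the comparisons with cortex, 2 for gliomas and 6 for end-stage cell lines.

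The end-stage p53R172HCKO cell lines hold the tumour-derived cells without the tissue around them. Microglia and macrophage markers averaged 3.96 to 4.61 over the 11 lines, against 7.96 to 10.8 in the p53R172HCKO gliomas, and vessel markers 3.95 to 4.70, against 6.20 to 7.87, both below the median probe set. Progenitor markers ran from 8.69 to 11.2 with a median of 9.91, against a median of 11.2 in those gliomas and a highest cortex of 8.54, and neuron markers were at 4.59 to 6.28. Against the cortices, 6 of the 10 genes rose in the lines: Spry1 by 3.41 ± 0.535 (SE, 10.6-fold), Etv4 by 2.68 ± 0.514 (SE), Spry4 by 2.26 ± 0.648 (SE), Dusp6 by 1.43 ± 0.466 (SE), Etv5 by 1.35 ± 0.549 (SE) and Spry2 by 1.06 ± 0.313 (SE). Their limma adjusted p-values were 1.69e-06, 3.81e-05, 0.00367, 0.00996, 0.0399 and 0.00456. Of all genes, 25.5% were called higher in this comparison and 24.3% lower, beside 6 of 10 and 0 of 10 here, and the median difference was 1.20 for the 10 genes and 0.02 for all genes. This comparison shares its cortices with the first.

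Of the 10 genes, 3, Spry1, Spry2 and Etv4, were higher in every line than in every cortex, as were 16.1% of all genes. Spry1 ran from 9.94 through 10.61 to 11.40 in the lines, Spry2 from 10.09 through 10.36 to 10.64 and Etv4 from 7.59 through 8.56 to 9.48. The span of Spry2 over the 11 lines, 0.553, was the narrowest of the 10 genes and narrower than that over the 5 cortices (0.807). Dusp6 (9.85, 11.86 and 12.23), Spry4 (6.54, 8.99 and 9.64) and Etv5 (10.02, 11.10 and 11.66) each had 10 of 11 lines above every cortex. Line 51 was the lowest for Dusp6 and Spry4, within the range of the cortices for both, and it also had the lowest dividing-cell markers of the lines (7.15, against a median of 10.3). All 4 probe sets of Spry4 and all 3 of Etv5 rose when each was tested alone. The calls of Dusp6, Spry2 and Etv5 were lost under cyclic loess normalization, where 3 remained, and that of Etv5 also without cortex 30, 31 or 34 (limma adjusted p = 0.104, 0.0531 and 0.100). With only the Cre-positive cortices Dusp6 (limma adjusted p = 0.058) and Etv5 (limma adjusted p = 0.137) were not called.

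Dusp4 was more variable than the others in the lines, from 6.34 through 8.04 to 10.02, with 8 of 11 above and 2 below every cortex (difference 0.82, interval -0.44 to 2.09, limma adjusted p = 0.286). Spred1 (0.22, interval -0.35 to 0.79) and Etv1 (0.14, interval -0.80 to 1.08) lay close to their cortex means. Etv1 is a member of the same ETS group as Etv4 and Etv5, but in the cortices it already read 11.02, 10.68, 11.11, 10.55 and 10.76, and in the lines 10.38 to 11.94.

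Set against the tumours of the same genotype, the lines had none of the 10 genes called, beside 13.7% of all genes called in either direction. Of the 10 differences 9 were above 0 and their median was 0.58, against 0.05 for all genes. The lines are those set against cortex and the gliomas those of the comparison between genotypes, so these comparisons share samples. By the paper, each of these tumours was paired with a line derived from it, and the fit leaves that pairing out. Only 2 genes had an unadjusted p under 0.05, Etv5 (0.97, interval 0.09 to 1.85, limma adjusted p = 0.137) and Spry2 (0.55, interval 0.05 to 1.05, limma adjusted p = 0.139). Of all 18194 genes 5048 had one, so 2 of 10 is not more than the background. Spry4 differed by 1.03 (interval -0.003 to 2.07, limma adjusted p = 0.182), and was called when the mean of its 4 probe sets was used (0.89, limma adjusted p = 0.0468). Of the 4, the 2 dimmest, with mean signals of 5.19 and 4.07 below the median probe set, were called higher alone (1.31 and 0.53, adjusted p = 0.00824 and 0.0356 in limma over all probe sets), and the 2 brightest were not. The growth factors in the medium, the culture itself and the loss of the other cells of the tumour cannot be told apart in this comparison. For Etv4, the difference of 0.25 became -0.09 without glioma 50.

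The 2 early biopsy lines (arrays 66 and 69) read 11.40 and 11.47 for Dusp6, 10.21 and 10.20 for Spry1, 10.32 and 10.08 for Spry2, 8.29 and 7.61 for Spry4, 8.84 and 7.92 for Etv4, and 10.56 and 10.24 for Etv5. Both lay above every cortex for these 6 genes and, except for Spry2 in line 69, within the range of the end-stage lines. The share of all genes with both early lines above every cortex was not taken, so these 6 say nothing particular of the pathway. Dusp4 read 6.18 and 6.35, the first below and the second just above the lowest end-stage line (6.34), and differed from the end-stage lines by -1.75 (interval -3.55 to 0.05). No gene of the 10 and no gene of all (0.0% called) passed the limma test with 2 arrays, where 515 of the 18194 genes, and none of the 10, had an unadjusted p under 0.05.

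Nf1 encodes neurofibromin, the GTPase-activating protein whose loss frees Ras, and the study followed its loss in DNA and protein in this mouse model. Its brightest probe set had a mean of 6.57, and the other 2, at 4.06 and 4.05, were below the median probe set, so 1 probe set carries what follows. Nf1 read 6.82, 6.99, 6.72, 6.69 and 6.95 in the cortices, a narrow range. Of 22 gliomas 13 lay below every cortex, 9 of them p53nullCKO, as did 8 of the 11 lines. The mean differences from cortex, -0.27 (interval -0.66 to 0.11) in gliomas and -0.32 (interval -0.74 to 0.10) in lines, did not pass (limma adjusted p = 0.248 and 0.207). With array weights the fall in lines did pass (-0.33, limma adjusted p = 0.0436). Taken as the mean of the 3 probe sets, both were above 0 (0.12 and 0.15). Of the 2 dim probe sets, 1 was called higher in gliomas and the other in lines, and neither in both. The difference was 0.42 in each case (adjusted p = 0.0483 in gliomas and 0.0199 in lines, limma over all probe sets). The direction thus rests on which probe sets are read.

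The lowest Nf1 value of the 40 arrays, 5.56, was that of line 68, the next end-stage line having 6.26. Early biopsy line 69 read 5.87 and its partner 66 read 6.84. Glioma 36 (5.71), glioma 50 (5.82) and glioma 41 (5.93) were the lowest tumours. A set of 20 genes with a probe set, 10 on each side of Nf1 in the RefSeq order of chromosome 11, were followed to see whether the region moved with it, each gene minus its group mean. In line 68 their median was -0.35, the lowest of the 11 lines, beside -0.95 for Nf1. Over the 11 lines Nf1 and this median had r = 0.67 (permutation p = 0.0326, adjusted 0.0653 over the 2 relations tested, in lines and in gliomas) and rho = 0.41 (permutation p = 0.214, adjusted 0.214). Without the 2 lines farthest from the median of Nf1, r was 0.53 (permutation p = 0.14), so the relation did not pass.

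**Figure D4:**
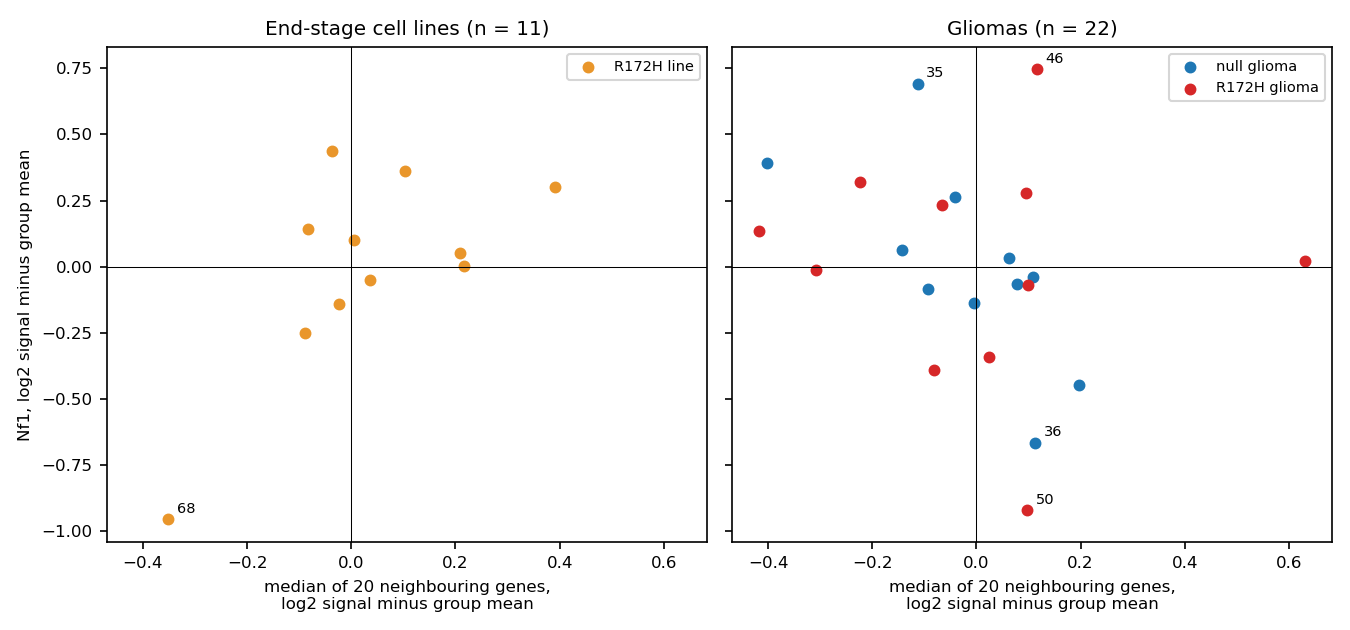
Nf1 (y axis) against the median of its 20 neighbouring genes (x axis), both as log2 signal minus the mean of the group, in 11 end-stage cell lines (left) and 22 gliomas (right); arrays more than 0.6 from their group mean in Nf1 are numbered. Line 68 is lowest on both axes among the lines, while gliomas 36 and 50 were low in Nf1 with neighbours near or above their group mean.

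In the gliomas r was -0.27 (permutation p = 0.22, adjusted 0.22) and rho -0.37 (permutation p = 0.0914, adjusted 0.183), and without the 2 farthest arrays r was -0.36. Within genotypes r was -0.68 in the p53nullCKO gliomas (permutation p = 0.0235) and -0.07 in the p53R172HCKO gliomas (permutation p = 0.832), and without gliomas 36, 41 and 50 it was -0.08. Omg and Evi2a lie inside an intron of Nf1 and are read from the other strand. Omg, a myelin glycoprotein gene, had means of 11.1 in cortex, 10.1 and 10.2 in the p53nullCKO and p53R172HCKO gliomas and 8.94 in the lines. Evi2a had means of 9.65, 8.26, 8.14 and 4.48 in the same order. Evi2a fell between p53R172HCKO gliomas and lines by 3.66 (limma adjusted p = 3.19e-08), beside falls of mature oligodendrocyte and microglia markers. Median levels of the former were 7.73 and 5.69. Over cortices 30 to 34 Evi2a read 10.09, 9.03, 9.89, 8.80 and 10.46. Mature oligodendrocyte markers read 11.23, 10.15, 10.90, 10.00 and 11.32, and microglia markers 8.22, 8.67, 8.54, 8.75 and 8.88. Line 65, highest of the lines in Evi2a (8.05), had these markers at 7.36 and 4.53. The part of cell types in these values was not tested. In line 68 Omg read 6.62, near the lowest line (6.58).

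Whether the genes varied together from tumour to tumour was asked by the 45 pairs among the 10, after the mean of each genotype was subtracted. Over 22 gliomas, 42 of 45 values of Pearson's r were above 0, with a median of 0.68, and 35 passed a permutation test adjusted over the 45 pairs, while 18 passed by Spearman's rho. The share of passing pairs among other genes was not taken, so these counts show no trait particular to the pathway. Dusp6 and Spry2 had r = 0.91 and rho = 0.82, Dusp6 and Spry4 r = 0.90 and rho = 0.82, and Spry2 and Spry4 r = 0.88 and rho = 0.85. For these 3 pairs the adjusted permutation p of r was 9e-05, from the smallest value that 100000 permutations can give (1e-05). Leaving out the 2 arrays farthest from the median of the first gene gave 0.75, 0.85 and 0.79.

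Much of the breadth of this relation came from few tumours. Without gliomas 36, 41 and 50 the median r was 0.32, and 18 of 45 pairs passed by r and 11 by rho. The pairs among Dusp6, Spry1, Spry2, Spry4, Etv4 and Etv5 all passed by r there, for example Dusp6 and Spry4 (r = 0.86, rho = 0.76), and Spry1 and Etv4 (r = 0.87, rho = 0.60). By rho, Dusp6 and Spry2 each failed with Etv4 and Etv5, and Spry4 failed with Etv5 (adjusted permutation p from 0.125 to 0.239). Without the 2 arrays farthest from the median of the first gene, r among these pairs ran from 0.23 (Spry2 and Etv4) to 0.82 (Spry1 and Etv5). No pair with Nf1 or Etv1 passed by r over the 19 gliomas, where 7 pairs with Nf1 had passed over all 22 gliomas. Within the p53nullCKO gliomas 10 pairs passed by r and within the p53R172HCKO gliomas 23, of which 6 and 3 by rho. Dusp4, a phosphatase of the same family as Dusp6, passed with no other gene over 22 gliomas (r from -0.14 to 0.35), and by r with Dusp6, Spry2 and Spry4 over the 19. By rho over the 19, Dusp4 passed with Dusp6 (adjusted permutation p = 0.021), but not with Spry2 (0.0546) or Spry4 (0.248). Without the 2 arrays farthest from the median of Dusp4, r with these genes was 0.38, 0.47 and 0.25.

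**Figure D5:**
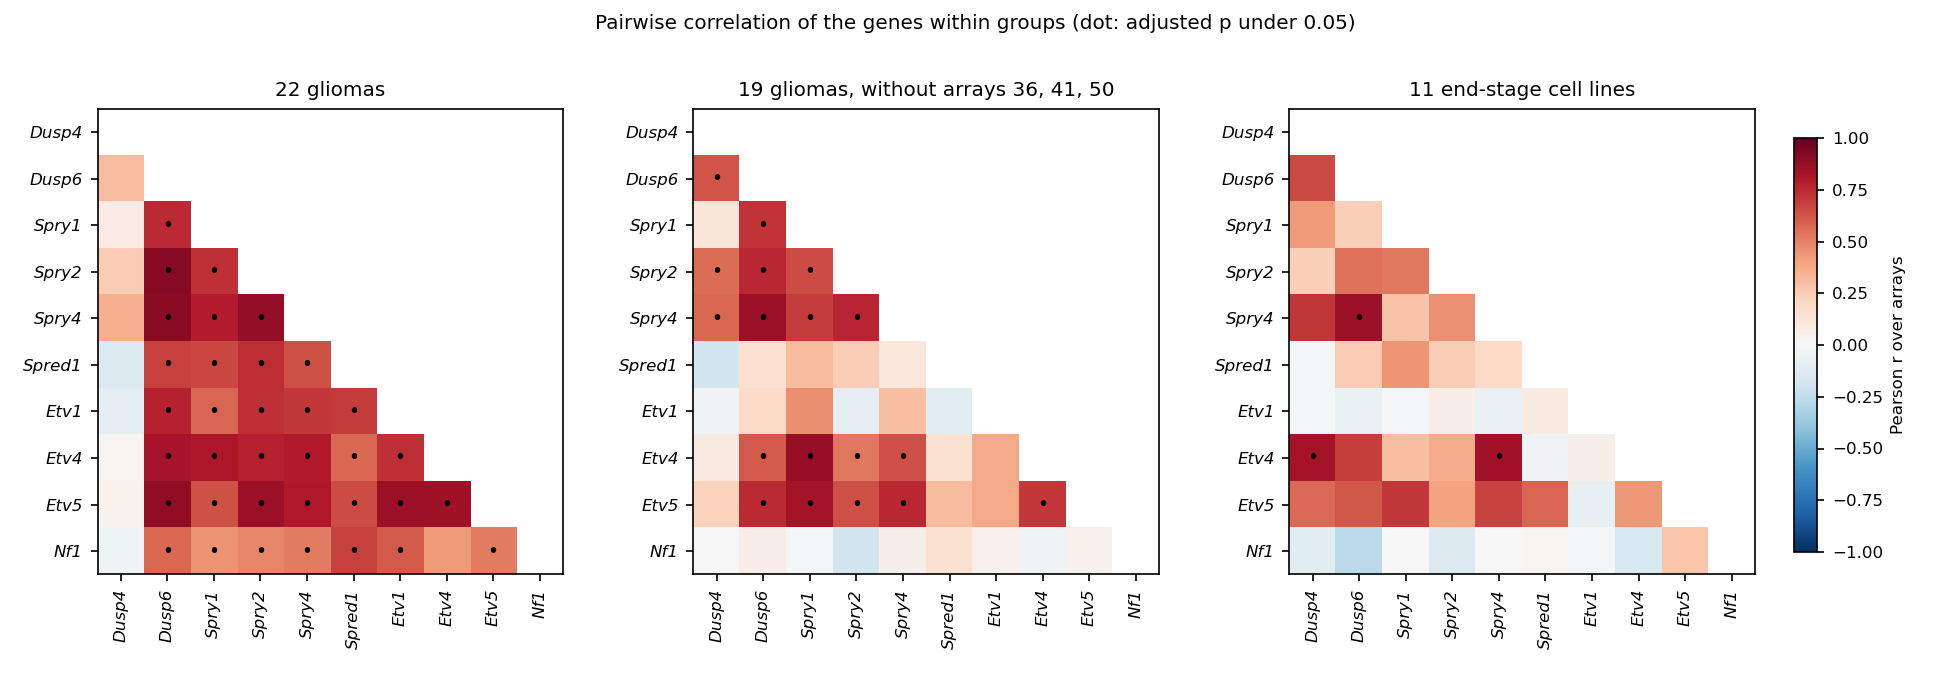
Pearson's r of each pair of genes over arrays after group means were subtracted, in 22 gliomas, in the 19 gliomas without arrays 36, 41 and 50, and in 11 end-stage cell lines (red positive, blue negative); dots mark a permutation p adjusted over 45 pairs under 0.05. The block of Dusp6, Sprouty genes, Etv4 and Etv5 has dots in the first 2 panels, while Nf1, Spred1 and Etv1 have dots in the first only.

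In the 11 end-stage lines the median r was 0.26. Only 3 pairs passed by r, Dusp6 and Spry4 (r = 0.86, rho = 0.58), Spry4 and Etv4 (r = 0.84, rho = 0.84) and Dusp4 and Etv4 (r = 0.83, rho = 0.84), with adjusted permutation p-values of 0.0341, 0.0329 and 0.0341, and none passed by rho. The first of them fell to r = 0.35 without the 2 farthest lines, so it rests on those, of which line 51 is one.

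Outside the 10, the genes whose signal followed each member most closely over the 40 arrays, once group means were subtracted, were taken from genes brighter than the median gene and are given as a description. For Etv1 they were Laptm4b, Sox2 and Ckb (r = 0.91, 0.88 and 0.87), and for Etv5 Dock1, Sox2 and Myc (r = 0.80, 0.77 and 0.76). Sox2 is a transcription factor of neural stem cells. For Spry4 they were Adam12, Tanc1 and Moxd1 (r = 0.86, 0.83 and 0.82), for Dusp6 Hes1, Plk2 and Adam12 (r = 0.77, 0.76 and 0.75) and for Spry1 Lix1l, Lima1 and S1pr2 (r = 0.85, 0.82 and 0.82). For Etv4 they were Myc, Antxr1 and Tmem176b (r = 0.82, 0.81 and 0.80), and for Spry2 Rhbdf1, Tmem176a and Lmo4 (r = 0.80, 0.79 and 0.79). For Dusp4 they were Adam19, Ccne1 and Psme3 (r = 0.73, 0.73 and 0.68), for Spred1 Sec24d, Pdlim5 and Ednrb (r = 0.78, 0.78 and 0.77), and for Nf1 Mrfap1, Grin3a and Eid1 (r = 0.75, 0.74 and 0.74). The closest other member had a higher r than these genes for Dusp6 (0.86), Spry2 (0.86), Spry4 (0.864) and Etv5 (0.85). Its r was lower for Spry1 (0.76), Etv1 (0.76), Etv4 (0.78), Spred1 (0.70), Nf1 (0.48) and Dusp4 (0.43). These arrays share 1 normalization and include gliomas 36, 41 and 50, whose part in these values was not tested.

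The rest of the pathway did not move as a whole. Of 97 other genes listed, 90 were measured, and in gliomas against cortex 31 rose and 28 fell, with a median difference of 0.01, beside 22.6% of all genes called higher and 24.7% called lower. In the core from receptor adaptor to ERK, 6 of 20 genes rose and 9 fell: Nras (1.35 ± 0.185, SE), the adaptor gene Gab1 (1.17) and Rras (1.13) were highest, and Mras (-1.46), the scaffold gene Ksr1 (-1.46) and Braf (-1.44) lowest. None of 8 exchange factors, which load Ras with GTP, rose, and 5 fell, led by the neuronal Rasgrf1 (-4.98 ± 0.838, SE), Rasgrp1 (-4.94) and Rasgrf2 (-4.33), beside neuron markers with medians of 11.9 in cortex and 6.40 and 6.51 in the p53nullCKO and p53R172HCKO gliomas. The part of neurons in these falls was not tested.

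Among 8 other GTPase-activating proteins, which share the task of neurofibromin, Rasa3 rose (1.02) and Rasal1 (-2.45), Dab2ip (-1.27) and Rasal2 (-1.10) fell. Of 10 other feedback inhibitors 1 rose (Pebp1, 0.33) and 4 fell, led by the ubiquitin ligase gene Cblb (-0.99), Flrt3 (-0.85) and Cbl (-0.51). Of 8 other MAP kinase phosphatases 4 rose, among them Dusp16 (1.53), Dusp2 (0.79) and Dusp10 (0.69), and 2 fell, Dusp7 (-1.74) and Dusp8 (-1.59). Of 16 other ETS factors 8 rose, led by Elk3 (2.09), Elf1 (1.81) and Ets1 (1.47), and 2 fell, Ets2 (-0.76) and Elk1 (-0.62). Genes that ERK is known to induce had 11 of 20 higher and 3 lower, with a median difference of 0.87, against -0.03 over all genes and shares of 22.6% and 24.7% called higher and lower: Ccnd1 (cyclin D1, 3.97 ± 0.340, SE), Hmga2 (3.66) and Myc (3.44) rose most, and Epha4 (-2.89), Egr3 (-2.84) and Slc20a1 (-0.68) fell.

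Between p53R172HCKO gliomas and end-stage lines, 8 of the 90 rose and 6 fell (limma adjusted p under 0.05), a share near the 13.7% of all genes called in either direction, so the counts say nothing particular of the pathway. Of the 20 genes that ERK induces 4 rose, with Egr1 (1.56 ± 0.501, SE), Fos (1.53) and Ier2 (1.37) highest, as did Il17rd (1.28), a feedback inhibitor also called Sef, Rras (1.52), Shc1 (0.71) and Dusp10 (0.65). The ETS genes Fli1 (-1.09), Erg (-1.05) and Spi1 (-1.01), which mark vessel and myeloid cells, fell, beside falls of other markers of those cells. Rasal3 (-0.82), Rasgrf2 (-2.17) and Ptpn11 (-0.43) were also called lower. The part of cell types in these falls was not tested.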

How the data were processed

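RNA of 40 samples, each hybridised to an Affymetrix mouse array, was measured. The authors corrected the background, normalized the arrays by quantiles and summarized probes by robust multi-array average, and the deposited values, 2.00 to 14.47, were read as log2 signals, since the log base is not given in the sources used here. Of 45101 probe sets 64 controls were left out, and 34945 named 1 gene, 932 several and 9160 none in the annotation used. The 3 Etv1 probe sets, which name 2 genes, were kept. Each gene took its brightest probe set, with no filter, and 1 model with 5 groups was fitted over 18194 genes in limma 3.58.1 (R 4.3.3) and tested on simulated data. A gene was called at a Benjamini-Hochberg adjusted p under 0.05. Relations used 100000 two-sided permutations (scipy 1.17.1, Python 3.11.15). The members and lists were chosen with earlier results of these data known. Named genes are all 10 members, per pathway list the 3 called genes that rose and the 3 that fell most, the 3 genes most like each member, and others with a value beside a result. Alternatives were another summary of probe sets, filter, normalization, weighting or set of arrays. The number of arrays, above all 5 cortices and 2 early lines, limits the precision, and quantile normalization hides a shift of most genes.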

Additional observations from a re-analysis of the deposited data

How the results depend on the processing

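Of 680 values recomputed under other settings 623 kept their direction and their side of the threshold, and of 126 recomputations of the 8 called differences 118 stayed called. In gliomas against cortex the count of the 10 genes called was 6 with array weights. It was 7 without gliomas 36, 41 and 50, and 6 without glioma 50. Leaving out glioma 50 alone, or gliomas 38, 45 and 58, was chosen after seeing the data. Gliomas 36, 41 and 50 had been set apart by earlier results of these data. The shares of all genes called under these and the following settings are not given here. The counts thus show no trait particular to these genes. In gliomas against cortex the count was 2 without each cortex in turn. Between genotypes it was 1 (Nf1) by the methods' t-test, unadjusted, and 0 after Benjamini-Hochberg adjustment. In lines against gliomas it was 1 (Spry4) with the mean of probe sets. In lines against cortex it was 3 with cyclic loess and 5 to 6 without each cortex in turn, and with only Cre-positive cortices Dusp6 (adjusted p = 0.058 in limma) and Etv5 (adjusted p = 0.137) were lost. For early lines it stayed at 0. The relations that passed numbered 10 and 23 within the p53nullCKO and p53R172HCKO gliomas and 18 without gliomas 36, 41 and 50, and Nf1 and its neighbours had r = -0.68 in the p53nullCKO gliomas.

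No difference that turned its sign had been called. In gliomas against cortex, Dusp4 was -0.0066 with cyclic loess, -0.093 with array weights, -0.068 with only Cre-positive cortices, -0.012 without gliomas 38, 45 and 58, and -0.065 to 0.14 without each cortex. Spred1 was -0.075 with the mean of probe sets and -0.095 with cyclic loess, and Nf1 was 0.12 with the mean of probe sets. Between genotypes without glioma 50, Dusp6 was 0.0094, Spry2 0.098, Spred1 0.0091, Etv1 0.072 and Etv5 0.24. Spry2 was 0.075 with the mean of probe sets and 0.011 with array weights, and Etv5 was 0.056 with array weights and 0.19 without gliomas 36, 41 and 50. In lines against gliomas, Spred1 was -0.068 with array weights and -0.059 without glioma 50 or without 36, 41 and 50. Etv4 was -0.12 with the mean of probe sets, -0.16 with array weights and -0.093 without glioma 50 or without 36, 41 and 50. In lines against cortex, Spred1 was -0.16 and Etv1 -0.25 with cyclic loess, and Nf1 was 0.15 with the mean of probe sets. In early against end-stage lines, Etv4 was 0.23 with the mean of probe sets. Without each early line in turn Spred1 was -0.089 to 0.028, Etv1 -0.12 to 0.32, Etv4 -0.60 to 0.33 and Nf1 -0.64 to 0.33, the lone line being assumed to vary like the other groups. The cause of these changes was not tested.

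The paper states that each p53R172HCKO tumour was paired with a line derived from it. No paired analysis was made because the labels do not say which line came from which tumour. The comparison of lines with those gliomas thus treats paired samples as separate. The 5 cortices and 2 early lines limit what can be told, 7 of the 28 probe sets had a mean under the median probe set, and nothing in the values tells a shift of most genes, which quantile normalization removes.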
